A study of Mus musculus with 12 samples.

Results

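The 11 colon libraries were grouped by whether Ptges3-ps, a pseudogene of the co-chaperone gene Ptges3, was listed at exactly 0 or above 0. In 5 libraries it was at 0, and these are called the silent libraries. In the other 6 it lay between 32.3 and 82.9, and these are called the expressing libraries. The labels name 12 mice, and the remaining Il10-/- mouse (replicate 4) was not analysed here. The sides were chosen from the measured value of 1 gene, and from the earlier knowledge that Dhtkd1 and mt-Nd4l split the libraries in the same way, so they are not groups of the study. The values of these 3 genes are therefore given as a description, with no test.

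Bulk RNA came from the full-thickness colon of mice aged 2 weeks. Every mouse lacked Il10, whose product interleukin-10 restrains gut inflammation, and there was no wild-type group. In Il10-/- Tnfr1-/- mice the receptor TNFR1, encoded by Tnfrsf1a, was removed as well. The silent side held Il10-/- replicates 3, 5 and 6 and Il10-/- Tnfr1-/- replicates 5 and 6. The expressing side held Il10-/- replicates 1 and 2 and Il10-/- Tnfr1-/- replicates 1, 2, 3 and 4. Each library was 1 mouse per the labels, whose sex and litter are not given, so p-values measure the spread between these animals only. The sample titles are numbers. Their first digit was 3 or 4 for the last 2 silent replicates of each genotype and 2 for Il10-/- Tnfr1-/- replicates 3 and 4, while the 5 libraries with a first digit of 1 were mixed, with Il10-/- replicate 3 silent and the other 4 expressing. What the digit stands for is not stated in the labels.

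Ptges3 encodes p23, which binds the chaperone Hsp90 and helps it release matured client proteins, and which also carries prostaglandin E synthase activity. A processed pseudogene is a copy of a spliced messenger RNA that was written back into the genome, so it can match its parent's coding exons over long stretches. Short reads from such stretches fit parent and copy alike, and a program such as kallisto shares them out among all matching transcripts by a statistical estimate. Dhtkd1 encodes a mitochondrial dehydrogenase subunit of lysine and tryptophan breakdown, and mt-Nd4l encodes a small subunit of respiratory complex I from mitochondrial DNA.

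The sequences printed here come from the transcript release and show the stretch on which the Ptges3 values turn. They cover positions 256 to 405 of the coding sequence, counted from its first base, and the capitals mark the 90-base exon of Ptges3 (chr10:128072068-128072157, mm10, plus strand) that the transcript Ptges3-202 leaves out. The pseudogene stretch lies at chr6:85844235-85844384 on the plus strand.
Ptges3-ps: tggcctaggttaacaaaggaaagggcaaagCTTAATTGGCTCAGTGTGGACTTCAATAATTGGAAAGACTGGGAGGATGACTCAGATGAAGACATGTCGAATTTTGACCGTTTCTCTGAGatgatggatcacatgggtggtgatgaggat
Ptges3-201: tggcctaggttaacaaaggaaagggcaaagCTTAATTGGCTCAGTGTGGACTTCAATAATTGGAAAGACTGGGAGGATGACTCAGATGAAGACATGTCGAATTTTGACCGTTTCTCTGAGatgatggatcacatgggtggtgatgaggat
Ptges3-202: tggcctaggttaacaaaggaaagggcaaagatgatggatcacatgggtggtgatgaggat
The first and second sequences are the same letter for letter. Over the whole pseudogene, all 480 bases matched the 483-base coding sequence of Ptges3 with 0 substitutions. Cut into overlapping words of 31 bases, Ptges3-ps held 450 words. All 450 also occurred in Ptges3-201, and 332 of them in Ptges3-202. No word of Ptges3-ps was its own, so by these letters no read inside it can be told from one of its parent.

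Ptges3-ps (ENSMUSG00000040078) is annotated as a processed pseudogene at chr6:85843980-85844459 on the plus strand. All values per library are the deposited abundances, which are divided by transcript length, so levels of different genes can be set side by side. In the 5 silent libraries Ptges3-ps was listed at 0. In the expressing libraries it was 80.1 and 32.3 in Il10-/- replicates 1 and 2, and 38.8, 34.6, 81.9 and 82.9 in Il10-/- Tnfr1-/- replicates 1 to 4. There was no value between 0 and 32.3, and both genotypes had libraries on each side. For this transcript the authors' deposited table gives a technical variance of 0.214 against an observed variance of 12.2, on the scale of their model.

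The parent gene was measured in every library. Ptges3 (chr10:128058954-128077272, plus strand) lay at 67.6, 80.4 and 78.9 in silent Il10-/- replicates 3, 5 and 6 and at 105.5 and 94.8 in silent Il10-/- Tnfr1-/- replicates 5 and 6. Its expressing values ran from 85.4 over a median of 115 to 147. The sides overlapped, and the mean was lower in the silent libraries by 0.40 on the log2 scale (SE 0.18, adjusted p = 0.206, limma).

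The 2 main transcripts of Ptges3 differed in how they split. Ptges3-201, which holds the 90-base exon, was 49.3 to 78.0 in the silent libraries and 32.9 to 59.6 in the expressing ones. Ptges3-202, which lacks it, was 9.74, 30.01 and 0.849 in silent Il10-/- replicates 3, 5 and 6 and 40.9 and 29.6 in silent Il10-/- Tnfr1-/- replicates 5 and 6, against 48.4 to 89.9 in the expressing libraries. The Ptges3-202 values of the sides did not overlap. Its share of Ptges3-201 and Ptges3-202 together was 1.08% to 38.8% in the silent libraries and 48.3% to 61.5% in the expressing ones.

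Pseudogene and parent were also added up. The sum of Ptges3-ps and Ptges3 was 67.6 to 105.5 in the silent libraries and 131 to 227 in the expressing ones, with no overlap, and the expressing mean of the sum was 2.02 times the silent mean. Since the values are divided by length, the same reads weigh more on the 480-base pseudogene than on its longer parent transcripts, so this sum depends on where reads were placed. Multiplied back by length before adding, which approximates the signal before that division, the sum was 130995, 145912 and 157363 in silent Il10-/- replicates 3, 5 and 6 and 192749 and 176649 in silent Il10-/- Tnfr1-/- replicates 5 and 6. In the expressing libraries it ran from 186355 over a median of 220101 to 291327. On that scale the sides overlapped, by silent Il10-/- Tnfr1-/- replicate 5 alone, and the expressing mean was 1.41 times the silent mean. How reads were divided between the copies was not tested, since the deposited values hold no reads.

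**Figure D1:**
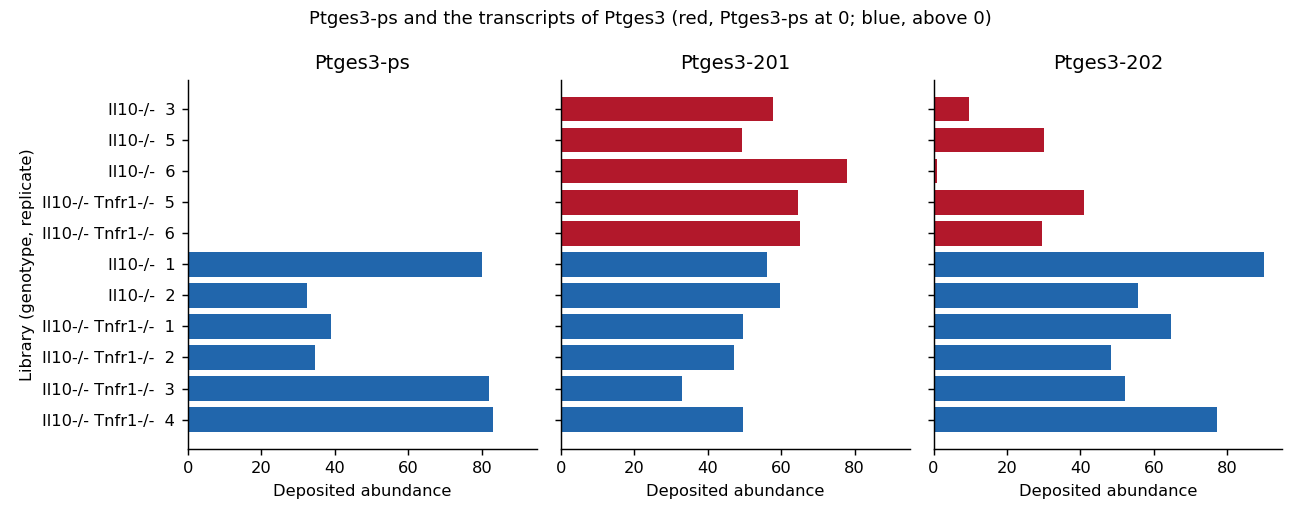
Bars give the deposited abundance (length-normalized, linear axis from 0) of Ptges3-ps, Ptges3-201 and Ptges3-202 in each of the 11 libraries, 1 bar per mouse, with silent libraries in red above expressing libraries in blue. Ptges3-ps has no bar in the 5 silent libraries and reaches 32.3 to 82.9 in the others, Ptges3-201 overlaps between the sides, and Ptges3-202 does not exceed 40.9 in any silent library.

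Dhtkd1 (chr2:5896115-5942792, minus strand) was the counterpart on the high side of the silent libraries. Its abundance was 9.03, 16.7 and 18.1 in silent Il10-/- replicates 3, 5 and 6 and 13.1 and 11.1 in silent Il10-/- Tnfr1-/- replicates 5 and 6. In the expressing libraries it ran from 2.60 over a median of 3.49 to 4.89. The sides did not overlap, and the silent mean was 3.81 times the expressing mean. Unlike Ptges3-ps, it was above 0 in every library, so it was a step in level and not an on/off gene.

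Almost all of that signal sat on 1 short transcript. Dhtkd1-204, a processed transcript of 663 bases with 3 exons, made up 86.2% to 99.5% of the gene's abundance per library. Its last exon overlaps 0 exons of the coding transcript Dhtkd1-202, which has 17. Of the 623 words of 31 bases in Dhtkd1-204, 233 (37.4%) also occur in other genes. The sequence printed here is 100 bases of that exon (chr2:5925168-5925267, mm10, minus strand) whose words occur in no other gene of the release, and so it is sequence on which the Dhtkd1 difference can be read without another gene.
Dhtkd1-204 last exon: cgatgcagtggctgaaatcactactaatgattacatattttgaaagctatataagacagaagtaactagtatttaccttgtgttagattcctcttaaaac
The deposited values therefore describe this transcript and say little on the coding messenger RNA of Dhtkd1.

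Camk1d, a calcium/calmodulin-dependent kinase gene near Dhtkd1 on chromosome 2, stood on the opposite side. It was 7.06, 9.93 and 5.05 in silent Il10-/- replicates 3, 5 and 6 and 11.7 and 6.36 in silent Il10-/- Tnfr1-/- replicates 5 and 6, against 15.5 to 21.3 in the expressing libraries. The sides did not overlap, and the silent mean was lower by 1.13 on the log2 scale (SE 0.21, adjusted p = 0.112, limma). In the breakdown pathway of Dhtkd1, 13 other genes were tested, and 2 had a lower and 1 a higher mean in the silent libraries at an unadjusted p under 0.05, near the 14.4% and 9.59% of all genes. Etfb, an electron carrier subunit that takes electrons from several mitochondrial dehydrogenases, was 387 to 1012 in the silent and 157 to 371 in the expressing libraries (log2 difference 1.04, SE 0.32, adjusted p = 0.121, limma), while its partner enzyme Etfdh lay 0.53 lower on the log2 scale (adjusted p = 0.13, limma). The pathway genes other than Dhtkd1 thus lay in both directions, and none passed the threshold.

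mt-Nd4l was 811, 2821 and 854 in silent Il10-/- replicates 3, 5 and 6 and 1688 and 1518 in silent Il10-/- Tnfr1-/- replicates 5 and 6. Expressing libraries ran from 3503 over a median of 5969 to 6809. The sides did not overlap, and the lowest library still held 811, so mt-Nd4l was graded and not off. The next complex I gene on the same precursor RNA is mt-Nd4, whose annotated span (10167 to 11544) overlaps that of mt-Nd4l (9877 to 10173). The overlap is confined to the ends of the genes, and mt-Nd4l and mt-Nd4 had no word of 31 bases in common. In the silent libraries mt-Nd4l came to 30.4%, 35.2%, 31.4%, 38.1% and 57.2% of mt-Nd4, in the order just used. In the expressing libraries it was 56.9% to 97.7% of mt-Nd4, so in this ratio silent Il10-/- Tnfr1-/- replicate 6 met the lowest expressing library. Of the 267 words of mt-Nd4l, 264 also occur in the nuclear pseudogene Gm10222, which was listed at 0 in every library used. Of the 1348 words of mt-Nd4, 846 (62.8%) also occur in another gene, Gm28439. How reads were divided among these sequences was not tested.

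Means of most other genes of mitochondrial DNA were also lower. Leaving out mt-Nd4l, 11 of 12 had a lower mean in the silent libraries and 5 of them an unadjusted p under 0.05, against 14.4% of all genes. The median log2 difference of the 12 was -0.52, against -0.09 over all genes tested. mt-Nd4l and mt-Atp8, a small subunit of ATP synthase, were the 2 without overlap. mt-Atp8 ran from 302 to 1519 in the silent and from 1629 to 2185 in the expressing libraries.

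Among the larger complex I subunits, mt-Nd5 was lower by 1.76 on the log2 scale (SE 0.40, adjusted p = 0.112, limma), mt-Nd2 by 1.16 and mt-Nd4 by 0.96. The cytochrome b gene mt-Cytb was lower by 0.81 on the same scale. Of the cytochrome oxidase genes, mt-Co1 lay at -0.51, mt-Co3 at -0.03 and mt-Co2, the 1 gene with a higher mean, at 0.46 on the log2 scale. Further values were -0.53 for mt-Nd1, -0.44 for mt-Atp6, -0.40 for mt-Nd6 and -0.26 for mt-Nd3. The share of all abundance on mitochondrial DNA was 9.57% to 20.9% in the silent and 15.9% to 27.0% in the expressing libraries, and overlapped. All 651 words of Gm28661, a pseudogene on chromosome 1, also occur in mt-Co2. Gm28661 had a mean of 3511 in the silent and 7316 in the expressing libraries.

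**Figure D2:**
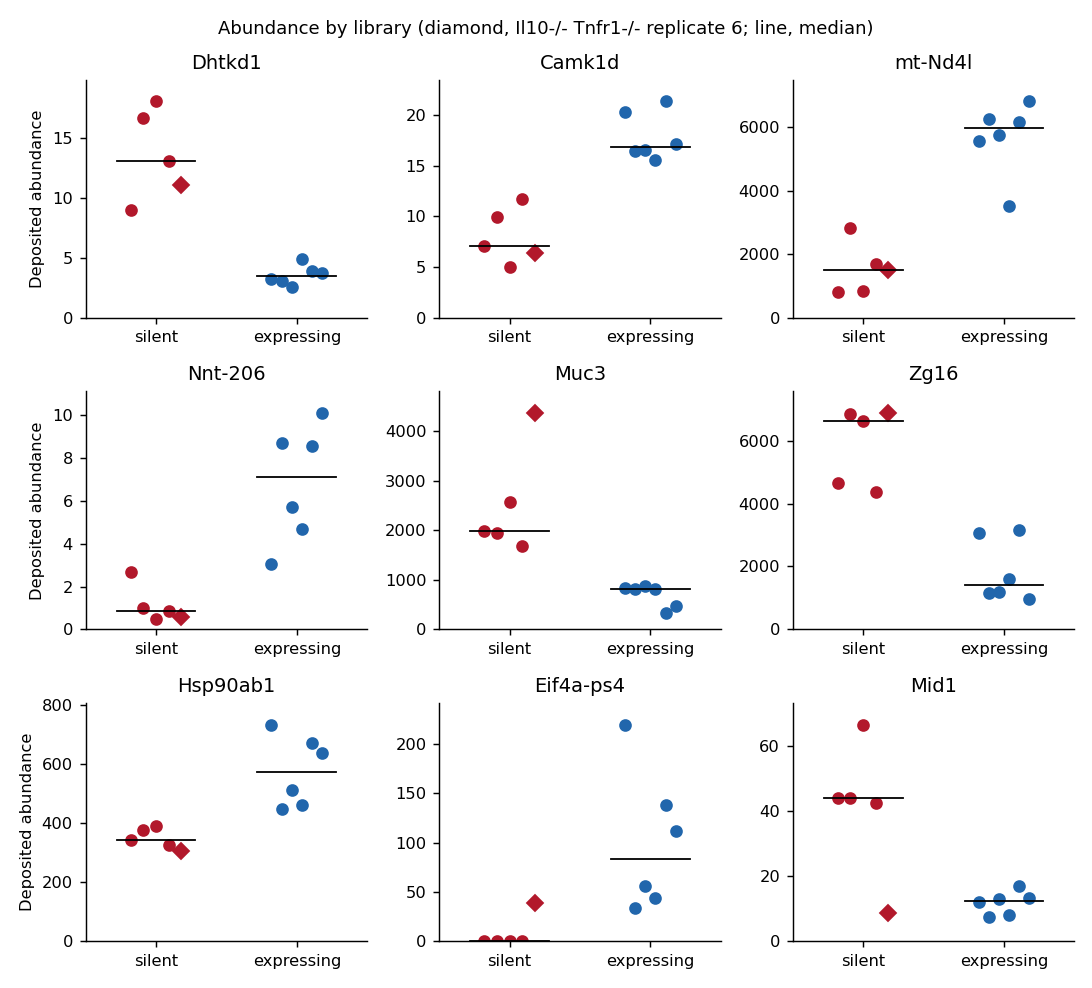
Deposited abundance (length-normalized, linear axes from 0) of 9 genes or transcripts, 1 point per mouse, silent in red and expressing in blue. Lines are medians, and the diamond is Il10-/- Tnfr1-/- replicate 6. It sits with the silent libraries for Dhtkd1 and mt-Nd4l, whose split was known beforehand. For Eif4a-ps4 and Mid1 it lies inside the expressing range, at 38.8 and 8.54.

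The on/off rule asked for every library of one side under 1, every library of the other side above 1, and a gap of at least 1 on the log2 scale. Ptges3-ps was the 1 gene that met it. The next closest genes, chosen after their values were seen, were pseudogenes that were near 0 in the first 4 silent libraries but present in silent Il10-/- Tnfr1-/- replicate 6. Eif4a-ps4, a copy of the translation initiation helicase Eif4a1, was 0, 1.88e-05, 0 and 0 in those 4 libraries and 38.8 in replicate 6, against 33.3 to 220 in the expressing libraries. Gm15899 was at 0 in the 4 and at 33.7 in replicate 6, against 18.8 to 127. Gm5812 did not exceed 0.274 in the 4 and was 4.997 in replicate 6, against 4.18 to 9.68. In each of these 3, replicate 6 therefore lay inside the expressing range.

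These pseudogenes also share most of their letters with other genes. Of the 31-base words of Eif4a-ps4, 97.4% also occur in Eif4a1. For Gm15899 all of them occur in Actr3, an actin-nucleation gene, and for Gm5812 93.9% occur in other genes, mostly Fbl. Gm8430, also chosen after its values were seen, had the opposite pattern: it was 0 in every expressing library and 227, 848, 62.9 and 86.2 in 4 silent ones, but 0 in silent Il10-/- replicate 5. Of its words, 93% are also in the ribosomal gene Rps27a.

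Such shared sequence was counted over all genes, by the leading transcript of each. At least 90% of words occurred in other genes for 361 of the 12698 genes with a match in the transcript release, or 2.84%. Among the 98 genes with an unadjusted p under 0.001 it was 14, or 14.3%, whereas among the 774 genes whose sides did not overlap it was 22, or 2.84%. Both counts include Ptges3-ps, which set the sides, and mt-Nd4l, whose split was known beforehand. The 134 processed pseudogenes of this kind were 27.7% of the 484 matched. Of the genes of shared sequence, 10 to 32 were listed under 0.01 in a silent library and 4 to 15 in an expressing one, with the highest number in silent Il10-/- replicate 6. The share these letters had in the differences was not tested.

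Over all genes, differences between the sides were many and small rather than few and sharp. Abundances were summed per gene, and the 13561 genes that exceeded 1 in 5 libraries or more were tested with limma on log2(abundance + 0.5), with genotype in the model and Benjamini-Hochberg adjustment, so each log2 difference is on that scale. The 2 genes with an adjusted p under 0.05 (0.0147%) were Ptges3-ps, whose value set the sides, and Dhtkd1, whose split was known beforehand, so nothing is read from that count. No other gene passed. An unadjusted p under 0.05 was reached by 3250 genes (24%), of which 1949 (14.4%) had the lower and 1301 (9.59%) the higher mean in the silent libraries. The smallest adjusted p of any other gene was 0.112, and 870 genes had one under 0.12. In 544 genes (4.01%) all silent libraries lay under all expressing ones, and in 299 genes (2.2%) above.

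The lower share of the genes with an unadjusted p under 0.05 was 60.0% as deposited, 44.2% with median-ratio scaling, 83.8% with equal totals and 49.0% with quantile normalization. The median of all genes was -0.09 as deposited and -0.28 with equal totals, so the balance of directions depends on how libraries are scaled. Library sums were 945373 to 1378971 in the silent and 804109 to 1057077 in the expressing libraries. The first principal component, with 36.9% of the variance, put all silent libraries (5.81 to 86.7) above all expressing ones (-66.2 to 3.995), with Il10-/- replicate 3 and Il10-/- Tnfr1-/- replicate 2 next to each other at the border. The side by genotype interaction called 0 genes with limma, with 909 at an unadjusted p under 0.05 and a smallest adjusted p of 0.679. The labelled comparison of the genotypes called 0 genes with limma both alone (1131 at an unadjusted p under 0.05) and with the side in the model (845). Tnfrsf1a checked the genotype labels: it was 30.6 to 78.1 in Il10-/- and 12.0 to 17.0 in Il10-/- Tnfr1-/- libraries. Il10 was listed at 3.27 to 22.9 although every mouse lacked it, and which part of the gene was removed is not stated in the labels. Ddx3y, a Y-linked gene, was at or under 0.122 in 3 libraries, 2 silent and 1 expressing, and 4.86 to 15.4 in the other 8, so both sides held both patterns.

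The first digit of the title is a possible batch that went with the sides, and the 5 libraries with a first digit of 1 allow a look within it, with 1 silent library and thus no test. There Dhtkd1 was 9.03 in silent Il10-/- replicate 3 against 2.60 to 4.89 in the 4 expressing libraries, and mt-Nd4l was 811 against 3503 to 6246. Hsp90ab1 was 341 against 448 to 733 and Muc3 1995 against 807 to 875. None of these genes overlapped between the sides over all 11 libraries. Their direction within these 5 was therefore fixed beforehand, and nothing on a batch is read from it. With the digit as a term in the limma model, the difference between the sides rested on that same 1 silent library. Counts of called genes from it are therefore not given. Dhtkd1 did not pass the threshold there, and nothing is read from that either. Digits 2, 3 and 4 each held libraries of 1 side only, so there the digit and the side cannot be told apart.

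Of the genes with the higher mean in the silent libraries, those with the smallest p included several of the gut epithelium. Muc3, a membrane-bound mucin of absorptive cells, was 1995, 1951 and 2566 in silent Il10-/- replicates 3, 5 and 6 and 1684 and 4371 in silent Il10-/- Tnfr1-/- replicates 5 and 6. In the expressing libraries it ran from 330 over a median of 815 to 875, and the sides did not overlap (log2 difference 1.83, SE 0.34, adjusted p = 0.112, limma). Phgr1, a small gut epithelial protein, was 862 to 1594 against 331 to 816 (log2 difference 1.45). Dmbt1, a secreted scavenger glycoprotein that binds bacteria, was 4157 to 12206 against 1101 to 3436 (1.41). Entpd8, an ectonucleotidase, was 112 to 199.6 against 41.4 to 98.8 (1.14). All 3 had an adjusted p of 0.112 with limma, like every gene of this rank, and none overlapped between the sides.

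Genes with the lower mean in the silent libraries and the smallest p had various known roles. Dpp4, a surface peptidase, was 8.07, 7.26 and 7.57 in silent Il10-/- replicates 3, 5 and 6 and 8.79 and 6.36 in silent Il10-/- Tnfr1-/- replicates 5 and 6, against 12.0 to 15.6 in the expressing libraries. Its log2 difference was -0.85 (SE 0.13, adjusted p = 0.112, limma), with the smallest SE of the genes described here, close to the 0.14 of Amacr. Cse1l, the export receptor that returns importin alpha to the cytoplasm, was 7.03 to 12.5 against 20.6 to 42.6 (log2 difference -1.35). Dkc1, the pseudouridine synthase of small nucleolar particles and telomerase, was 5.31 to 8.79 against 12.5 to 29.2 (-1.42). Mesd, a chaperone of lipoprotein receptors, was 8.65 to 11.8 against 18.4 to 34.3 (-1.11), and Amacr, a racemase of branched fatty acid breakdown, 4.08 to 5.45 against 7.54 to 10.1 (-0.75). None of these genes overlapped between the sides.

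Nnt, the proton-pumping transhydrogenase of the inner mitochondrial membrane, is listed under 2 identifiers. The one that holds Nnt-206 was 2.67, 0.989 and 0.464 in silent Il10-/- replicates 3, 5 and 6 and 0.854 and 0.557 in silent Il10-/- Tnfr1-/- replicates 5 and 6, against 3.05 to 10.1 in the expressing libraries (log2 difference -2.24, SE 0.39, adjusted p = 0.112, limma). The one that holds Nnt-201 overlapped fully, with a log2 difference of 0.07 (SE 0.33). Nnt-206 made up 12.1% to 24.7% of both transcripts in the silent and 46.2% to 67.9% in the expressing libraries. It has 17 exons, of which 2 overlap none of the 15 of Nnt-201, yet all of its 3309 words also occur under the other identifier. The step thus lay in 1 of 2 identifiers that share their sequence.

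Genes of p23 and the Hsp90 machinery, which works with p23, were looked at next. Leaving out Ptges3-ps, 7 of 12 had a lower and 2 a higher mean in the silent libraries at an unadjusted p under 0.05, against 14.4% and 9.59% of all genes. The median of the 12 was -0.45. Hsp90ab1, the constitutive Hsp90, was 341, 375 and 389 in silent Il10-/- replicates 3, 5 and 6 and 324 and 303 in silent Il10-/- Tnfr1-/- replicates 5 and 6, against 448 to 733, with no overlap (log2 difference -0.75, SE 0.18, adjusted p = 0.112, limma). The inducible Hsp90aa1 lay 0.76 lower on the log2 scale, the linking co-chaperone Stip1 0.57 lower and the immunophilin Fkbp4 0.55 lower, all with overlap. Fkbp5, an immunophilin induced by glucocorticoids, went the other way at 0.95 (SE 0.32, adjusted p = 0.129, limma). None of the 12 passed the threshold.

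In the proliferation list, 12 of 13 genes had the lower mean in the silent libraries and 7 had an unadjusted p under 0.05, against 14.4% of all genes, with a median of -0.74 and none past the threshold. Pcna, the sliding clamp of DNA replication, was 73.1, 68.8 and 91.6 in silent Il10-/- replicates 3, 5 and 6 and 106 and 108 in silent Il10-/- Tnfr1-/- replicates 5 and 6, against 122 to 196 with no overlap (log2 difference -0.74, SE 0.18, adjusted p = 0.112, limma). The replicative helicase genes Mcm2 and Mcm5 lay at -0.98 and -0.99 on the log2 scale. In log2 from the mean of the 11 libraries, the list's median ran from -0.63 to -0.20 in the silent libraries. That median was -0.65 in expressing Il10-/- Tnfr1-/- replicate 1, so the sides overlapped. In the crypt base and Wnt target list all 11 genes had the lower mean and 6 an unadjusted p under 0.05, against 14.4% of all genes, with a median of -0.53. That count was 3 without Il10-/- Tnfr1-/- replicate 6, 3 with quantile normalization and 2 without Il10-/- replicates 5 and 6. Lgr5, the marker of crypt base stem cells, was 0.876 to 3.25 against 2.91 to 6.48 (log2 difference -1.12), and overlapped. In such bulk tissue, fewer cells of a type and less RNA per cell cannot be told apart.

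Goblet cell genes were higher in the silent libraries, but not all of them. Of 12 tested, 5 had the higher and 1 the lower mean at an unadjusted p under 0.05, against 9.59% and 14.4% of all genes. Their median was 0.76, and their summed abundance was 13745 to 23295 against 6596 to 11475. Zg16, a lectin of the mucus layer, was 4647, 6849 and 6622 in silent Il10-/- replicates 3, 5 and 6 and 4363 and 6884 in silent Il10-/- Tnfr1-/- replicates 5 and 6, against 981 to 3164 (log2 difference 1.74, SE 0.36, adjusted p = 0.112, limma). Fcgbp, a mucus protein linked to the main secreted mucin, was 1438 to 2822 against 366 to 1240 (1.46). Spink4, a goblet cell protease inhibitor, lay at 0.97 with overlap. The 1 lower at that p was Ang4, an antibacterial ribonuclease, at -1.66 (SE 0.62), and 2 more genes of the list had a lower mean without reaching it. With quantile normalization, 3 genes were higher and 2 lower at an unadjusted p under 0.05, with a median of 0.48.

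Absorptive colonocyte genes had 5 of 17 higher and 0 lower at an unadjusted p under 0.05, against 9.59% and 14.4% of all genes. Their median was 0.38. Besides Muc3, Guca2a, the gene of the hormone guanylin, was without overlap at 1572 to 2832 against 117 to 1458 (log2 difference 1.59, adjusted p = 0.129, limma), and Car4, a carbonic anhydrase, lay at 1.67. The nuclear genes of the respiratory chain had mostly higher means, with 7 of 14 higher and 0 lower at an unadjusted p under 0.05, against 9.59% and 14.4% of all genes, and a median of 0.42. With quantile normalization it was 2 higher and 1 lower with a median of 0.17, and with equal totals 5 higher and 1 lower with a median of 0.21. Ndufa1, an accessory subunit of complex I, lay at 0.62 on the log2 scale (SE 0.18, adjusted p = 0.116, limma), with overlap between the sides.

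Epithelial defence genes and interferon-induced genes had higher medians, at 0.93 and 0.76. In each, 5 of 15 were higher and 0 lower at an unadjusted p under 0.05, against 9.59% and 14.4% of all genes. Reg3g, a bactericidal lectin, was 240, 1941 and 6898 in silent Il10-/- replicates 3, 5 and 6 and 1202 and 520 in silent Il10-/- Tnfr1-/- replicates 5 and 6, against 7.43 to 732, so the sides overlapped. Irf7, a master regulator of interferon responses, was 57.2 to 182 against 20.6 to 62.6, with the value of 182 in Il10-/- Tnfr1-/- replicate 6. Without that library the interferon median was 0.38. Then 1 of 15 genes had the higher mean at an unadjusted p under 0.05, against 9.85% of all genes.

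Smooth muscle and enteric neuron lists differed mostly between single libraries. All 14 smooth muscle genes had the lower mean in the silent libraries, with a median of -0.96, yet 0 of them reached an unadjusted p under 0.05 with limma and none was called. Their summed abundance was 243 to 4418 in the silent and 1071 to 9582 in the expressing libraries. The enteric neuron and glia list had a median of -0.35, again with 0 of 14 genes at an unadjusted p under 0.05. Both lists had their lowest medians in silent Il10-/- replicates 5 and 6. By the on/off limits, 57 genes were off in these replicates and on in every other library. They included Scg2 and Gap43, neuronal genes chosen after their values were seen: Scg2 was 0.364 and 0.149 in these replicates and 5.55 to 42.5 elsewhere. Without both libraries, a choice made after seeing the data, the medians were -0.25 for smooth muscle and 0.39 for neurons and glia. Those of proliferation (-0.69) and goblet (0.48) kept their direction. The p23 and Hsp90 list and the mitochondrial DNA list, of 13 genes each, here include Ptges3-ps and mt-Nd4l. Their medians with these genes went from -0.50 and -0.53 with both libraries to -0.60 and -0.84 without them. Fewer proliferation genes (4) were then lower at an unadjusted p under 0.05, and fewer goblet (3), epithelial defence (2) and colonocyte (1) genes higher. The goblet list then also had 2 genes lower at that p, so it was mixed. Over all genes the shares were 8.60% lower and 6.18% higher.

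Fibroblast and collagen genes had a median of -0.85, with 2 of 15 lower at an unadjusted p under 0.05, a share like the 14.4% of all genes. Dcn, a collagen-binding proteoglycan, was 0.980 to 13.9 in the silent and 21.2 to 168 in the expressing libraries without overlap (log2 difference -2.16, SE 0.63, adjusted p = 0.116, limma). Pacemaker cell genes of the muscle wall had 2 of 4 lower at an unadjusted p under 0.05, against 14.4% of all genes. These were Gja1, a gap junction gene, at 5.98 to 12.3 against 14.4 to 27.0 without overlap, and Ano1, at -1.60 on the log2 scale with overlap. Etv1 and Kit, at -0.71 and -0.35, did not reach that p. Without Il10-/- Tnfr1-/- replicate 6, 1 of 4 was lower at that p, against 14.9% of all genes. The small intestine list had 2 of 6 genes higher at that p, Fabp2 and Rbp2, against 9.59% of all genes. The list's summed abundance was 162 to 1893 in the silent and 33.7 to 257 in the expressing libraries. Its Paneth cell gene Mptx2 was at 0. Fabp2, a fatty acid carrier of enterocytes, reached 1640 in a single silent library and had a silent median of 154 against 148. Skeletal muscle genes summed to 12.9987 to 56.7 and 16.9 to 96.9, with Myh4 and Pvalb at 0 in all libraries. The part of such tissue in the results above was not tested.

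**Figure D3:**
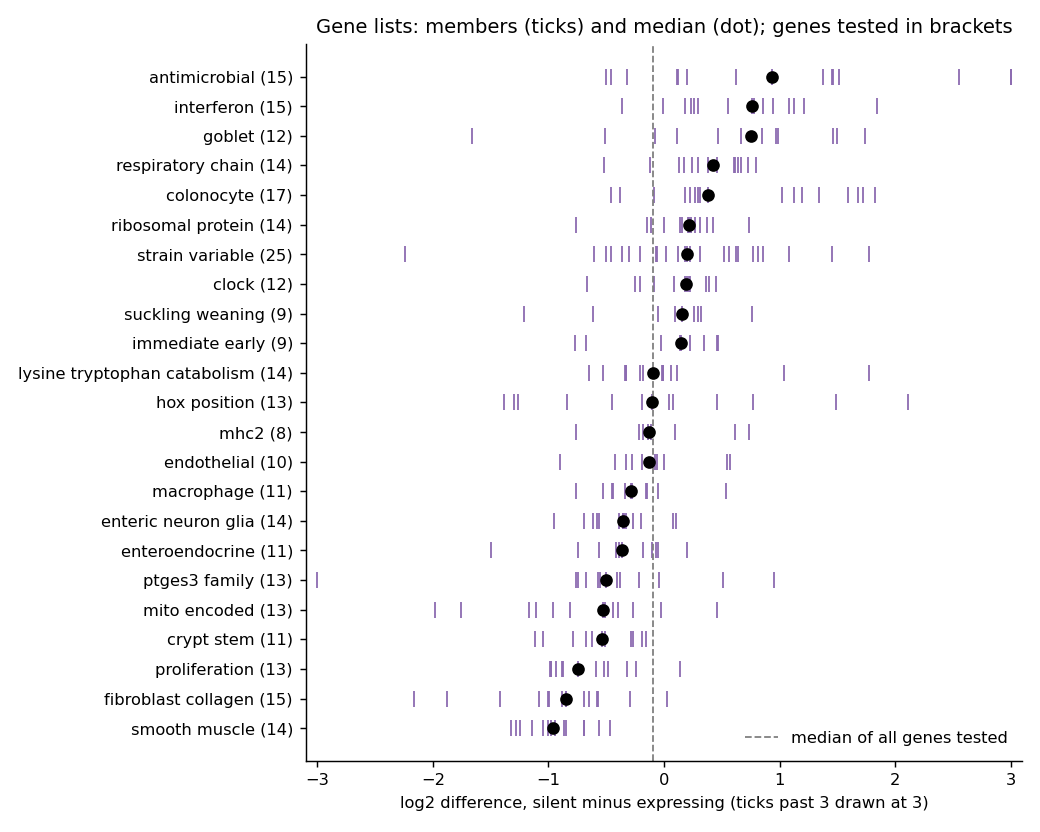
Each tick is the log2 difference (silent minus expressing) of 1 gene, dots are list medians, and the dashed line is the median of all genes tested at -0.09. The highest medians are those of epithelial defence (0.93), interferon (0.76) and goblet (0.76) genes, and the lowest of the lists drawn, which hold 8 or more tested genes, are those of smooth muscle (-0.96), fibroblast (-0.85) and proliferation (-0.74) genes.

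**Figure D4:**
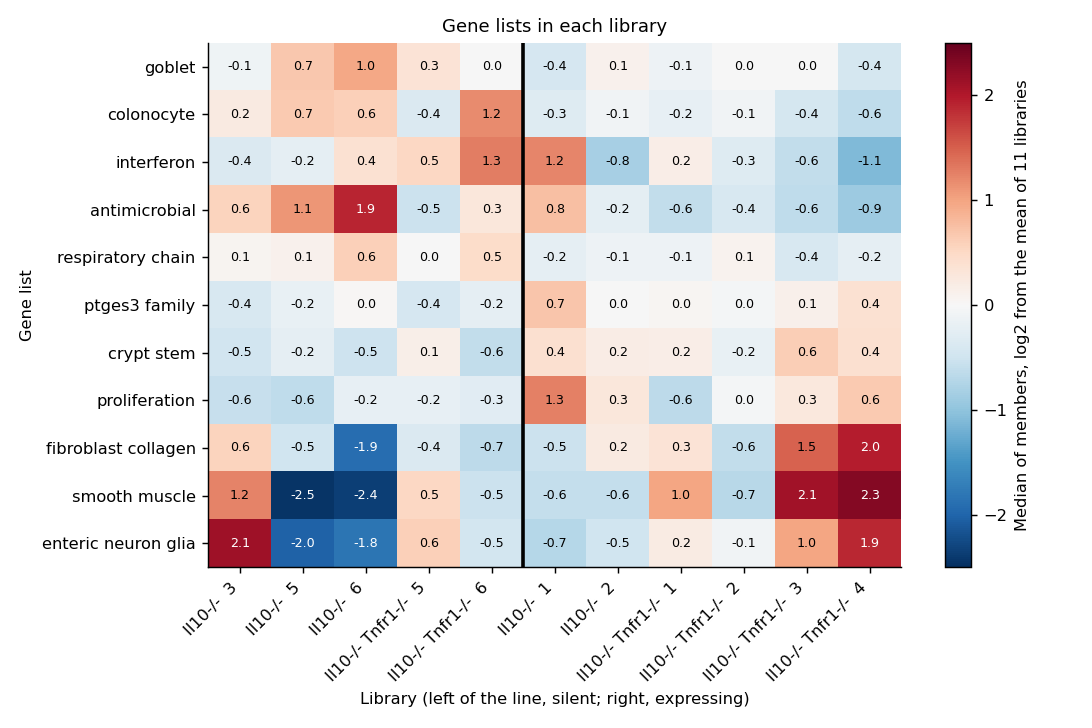
Colour and number give the median of each list's genes in each library, in log2 from the mean of the 11 libraries, with silent libraries left of the line. Smooth muscle and enteric neuron lists are lowest in Il10-/- replicates 5 and 6. The proliferation list is below its mean in all 5 silent libraries. It is also below it in expressing Il10-/- Tnfr1-/- replicate 1 (-0.65, the lowest of all libraries) and replicate 2 (-0.05).

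Genes known to differ in presence or level between inbred strains were examined as a list, because an on/off gene can be of that kind. Leaving out Dhtkd1, 24 were tested, with a median of 0.19, and 2 had the lower and 4 the higher mean at an unadjusted p under 0.05, against 14.4% and 9.59% of all genes. Dhtkd1 and Nnt, both described above, were the 2 without overlap. Oas1b, an interferon-induced antiviral gene, lay at 0.86 (SE 0.25, adjusted p = 0.116, limma). H2-Ea-ps, Ifi202b, Crygd and Tyrp1 were at 0 in all libraries and so carried no difference. Mid1, a ubiquitin ligase gene at the edge of the pseudoautosomal region, was 44.0, 44.1, 66.7 and 42.6 in the first 4 silent libraries and 8.54 in Il10-/- Tnfr1-/- replicate 6, against 7.50 to 16.8 in the expressing ones. No gene of the list met the on/off rule.

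Genes within 5 Mb of the marker genes were counted to see whether neighbours shared the split. Around Ptges3-ps, 25 of 88 other genes tested (28.4%) had an unadjusted p under 0.05, 15 lower and 10 higher, and 9 lay lower and 2 higher without overlap. Around Dhtkd1, 10 of 29 (34.5%) had an unadjusted p under 0.05, 8 lower and 2 higher, and the 3 without overlap, Camk1d, Fam171a1 and Sephs1, were all lower. These shares stand beside 24% of all genes at that p, with 14.4% lower and 9.59% higher. Without overlap, 4.01% of all genes lay lower and 2.2% higher. The nearest gene to Ptges3-ps with an unadjusted p under 0.05 was Nat8f1, an acetyltransferase gene 66.2 kb away, at 1.05 on the log2 scale (SE 0.35). On chromosome 6, that of Ptges3-ps, 6.48% of genes lay lower without overlap, and on chromosome 2, that of Dhtkd1, 4.33%. The other autosomes and X ran from 2.33% to 6.48%, against 0 of 11 genes on Y and 2 of 13 in mitochondrial DNA. Neighbours thus held both directions. More were lower than higher at an unadjusted p under 0.05 around each marker gene, as among all genes.

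Single transcripts split more often than genes did. By the on/off rule, 45 of 27895 transcripts (0.161%), that of Ptges3-ps among them, were off and 10 (0.0358%) on in the silent libraries. Trim28-210, a processed transcript of the corepressor Trim28, was 0 in all 5 silent libraries and 4.37 to 24.8 in the expressing ones, while the gene's log2 difference was 0.01. Apoe-203 was 0 in the silent and 3.03 to 81.5 in the expressing libraries, with -0.11 for the gene of this lipid carrier. In the other direction, Prmt1-210, of an arginine methyltransferase gene, was 2.30 to 76.8 in the silent libraries and 0 in all 6 expressing ones, with a log2 difference of -0.19 for the gene. These genes overlapped as wholes, so the on/off step was between their transcripts. Words found in no other transcript made up a median of 4.47% of the transcripts that were off, 3.42% of those that were on, and 9.15% of all tested.

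Shares of transcripts within their gene gave the same picture on a graded scale. Of 64015 transcripts, 1491 (2.33%) had a higher and 2017 (3.15%) a lower share in the silent libraries without overlap. Where the gap was 10 points or more, 133 were higher and 99 lower. Of the lower ones 91.8% were protein-coding, against 52.7% of the higher ones and 50.7% of all. Cyp20a1-201, the coding transcript of a cytochrome P450 gene, held 10.4% to 26.3% of its gene in the silent and 57.0% to 99.97% in the expressing libraries. Dcun1d2-207, a non-coding transcript of a neddylation gene, held 57.4% to 85.5% against 4.85% to 24.0%.

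The kinds of transcript also differed between the sides. Protein-coding transcripts held 61.6% to 62.8% of the nuclear abundance in 4 silent libraries and 71.5% in silent Il10-/- Tnfr1-/- replicate 6, against 64.3% to 73.2% in the expressing libraries. Retained introns held 9.50% to 11.7% in the same 4 and 7.72% in replicate 6, against 7.01% to 8.77%. Silent Il10-/- Tnfr1-/- replicate 6 was thus inside the expressing range in both, as it was for Eif4a-ps4 and Mid1. It lay with the silent libraries in Ptges3-ps, Dhtkd1 and Camk1d. Of these, Ptges3-ps set the sides, the split of Dhtkd1 was known beforehand, and Camk1d was named for its p between the sides. Nothing on where this library belongs is therefore read from these genes.

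Transcript length was related to direction as well. Genes were divided into 5 classes by the length of their leading transcript. In the shortest, of 190 to 905 bases, the median log2 difference was 0.21, with 167 genes lower and 562 higher at an unadjusted p under 0.05. In the longest, of 4074 bases or more, it was -0.32, with 614 lower and 41 higher. Single libraries of the sides met. In log2 from the mean of all libraries, the class median went from 0.03 in the shortest to -0.08 in the longest class. That held for both silent Il10-/- Tnfr1-/- replicate 5 and expressing Il10-/- Tnfr1-/- replicate 2. The goblet, Hsp90 and other lists were not matched for length, and the part of length or transcript kind in any of the differences above was not tested.

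**Figure D5:**
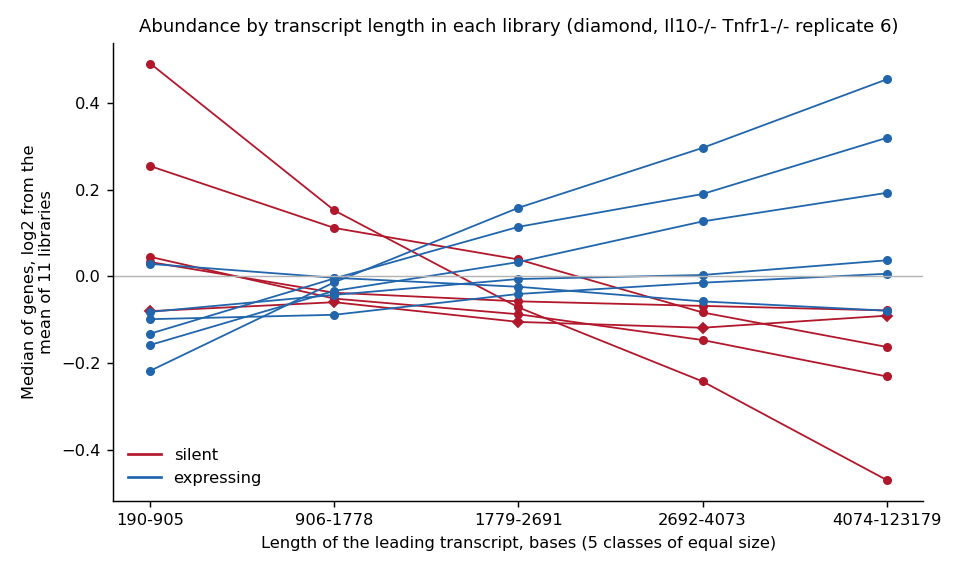
Each line is 1 library, and each point is the median log2 difference from the mean of the 11 libraries over the genes of a length class, with silent libraries in red, expressing ones in blue and Il10-/- Tnfr1-/- replicate 6 as diamonds. Silent Il10-/- replicate 6 falls from 0.49 in the shortest to -0.47 in the longest class, expressing Il10-/- Tnfr1-/- replicate 3 ends at 0.45, and the diamonds stay near -0.09. The sides meet in silent Il10-/- Tnfr1-/- replicate 5 and expressing Il10-/- Tnfr1-/- replicate 2, which both end at -0.08.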

How the data were processed

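RNA of 11 mouse colons (12 in the labels) was analysed. Per the labels' protocols, libraries were stranded mRNA read as single-end reads, with mm10 as the build and CASAVA, kallisto and sleuth as the tools per the submitters' processing notes (no versions given). The authors deposited 1 abundance per transcript and library, a never-negative signal that is divided by transcript length and scaled between libraries. It is not counts, so library depth cannot be read from it and counting intervals are not printed. The technical and observed variances per transcript are a score of the authors' model, per the file headers. Columns were matched to samples by title, and 1 per-sample column matched none and was not used.

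Of 114059 rows, 866 repeats were dropped, and transcripts were summed to 35688 genes. The sides were set by Ptges3-ps at 0 or above 0. The members and gene lists were chosen with earlier results of these data known. Genes over 1 in at least 5 libraries were tested on log2(abundance + 0.5) with limma 3.58.1 (R 4.3.3; trend and robust moderation, two-sided) with genotype as covariate, and p was adjusted by Benjamini-Hochberg with a threshold of 0.05. The script was tested on simulated data. Named genes were the markers and Ptges3, on/off genes, the 10 of smallest p in each direction with a mean of at least 1 (predicted, segment and sex-linked genes left out), 3 of smallest p per list, neighbours within 5 Mb with p under 0.05, mitochondrial genes, and the checks Il10, Tnfrsf1a and Ddx3y. Xist has no row and was not used. Sequences and words of 31 bases came from GENCODE release M21, which held 96.6% of the transcripts. Alternatives covered the pseudocount, the filter, scaling, covariates, each genotype alone, moderation, repeated rows, single transcripts and leaving out each library.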

Additional observations from a re-analysis of the deposited data

Results flagged for a closer look

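Outlying libraries were looked for in 67 groups of values, each 1 side of 1 gene, ratio or library measure, and chance alone marks about 1 group in 20. There were 5 such values, all on the silent side, and 4 of them belonged to Il10-/- Tnfr1-/- replicate 6. In that library Eif4a-ps4 was 38.85, while the other 4 silent libraries did not exceed 1.88e-05. Its mt-Nd4l came to 57.22% of mt-Nd4, against 30.4% to 38.1%. Protein-coding transcripts held 71.49% of its nuclear abundance, against 61.6% to 62.8%. Its abundance-weighted median transcript length was 926 bases, against 677 to 738. The remaining value was the Nnt identifier that holds Nnt-206, at 2.67 in Il10-/- replicate 3 against 0.464 to 0.989 in the other silent libraries.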

How the results depend on the processing

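Ptges3-ps had to be called under every setting, since its value set the sides. The number of genes called by limma was 1, Ptges3-ps, with no filter on low values, with equal totals, with the smooth muscle score as covariate and with sex by Ddx3y as covariate (the last chosen after seeing the data, as Xist has no row), and Dhtkd1 was not called in these. In Il10-/- libraries alone it was 2 (Gm15899 and Ptges3-ps), with 2153 genes at an unadjusted p under 0.05, 33 on/off genes and 5405 without overlap. In Il10-/- Tnfr1-/- libraries alone it was 4 (Gm14176, Gm5931, Gm8430 and Ptges3-ps), with 1343, 12 and 3154. These fits hold 5 and 6 libraries, where groups separate more easily. Single transcripts gave 55 on/off items, a choice made after seeing the data.

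Leaving out each library in turn gave 1 to 6 called genes, 2194 to 3615 at an unadjusted p under 0.05, 1 to 4 on/off genes and 864 to 1892 without overlap. The 6 were called without Il10-/- Tnfr1-/- replicate 6 and were Dhtkd1, Eif4a-ps4, Gm15899, Gm5812, Mid1 and Ptges3-ps, with 1892 genes without overlap. Without Il10-/- Tnfr1-/- replicate 2, 1400 were without overlap. Dhtkd1 was no longer called without Il10-/- replicate 1, 2, 5 or 6, or without Il10-/- Tnfr1-/- replicate 1, 3, 4 or 5. With the leading transcript alone, Ptges3 turned to 0.32 on the log2 scale, since Ptges3-201 alone was then used. Of the named genes' other values, 624 kept direction and side of the threshold, 16 no longer passed and 1 newly passed. No paired analysis was possible because replicate numbers follow accession order and pair no mice. Depth is unknown, so what counting error adds to values near 0 cannot be given.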
